A study of Rattus norvegicus with 210 samples.

Results

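The comparison described here set the preoptic area (POA) of 22-day-old female rats (postnatal day 22, PND22) whose dams had received ketoconazole (KTZ) at 12 mg/kg bw/day against the POA of control rats of the same age. It was formed by taking every library that the labels place in those groups, 5 KTZ 12 and 5 control libraries, which are 10 of the 210 RNA-seq libraries of the series. The series covers the POA and the mediobasal hypothalamus (MBH) at 3 ages, PND22, PND42 and PND90, in rats exposed around birth to vehicle, to 3 doses of KTZ (3, 6 and 12 mg/kg bw/day) or to 3 doses of diethylstilbestrol (DES; 3, 6 and 12 µg/kg bw/day), and asks how exposure to endocrine disrupting chemicals alters the hypothalamic transcriptome that governs secretion of gonadotropin-releasing hormone (GnRH). Both groups were Sprague-Dawley females. Their dams were gavaged daily between gestation day 7 and PND22, with a break around birth. Every animal, control or KTZ 12, therefore had a dam dosed in corn oil, and the offspring were reached only through the dam. The controls of this comparison also served the KTZ 3, KTZ 6 and DES groups. Each library is bulk polyA RNA of a dissected block from 1 rat, the same 10 rats also gave an MBH library each, and the labels do not say which rats were littermates, so that the p-values measure the spread between these rats and not between litters.

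The POA lies at the front of the hypothalamus and holds most GnRH cell bodies of the rat, together with neurons that bear estrogen and progesterone receptors and that time puberty and the ovulatory surge. KTZ is an imidazole antifungal that inhibits cytochrome P450 enzymes, among them the lanosterol demethylase of cholesterol synthesis, encoded by Cyp51, and several enzymes of steroid synthesis. Myelination of the hypothalamus is under way in the weeks after birth and depends on oligodendrocytes whose differentiation is driven by a small set of transcription factors.

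Library totals, counted over all annotated genes, were 12674564, 13111764, 15172365, 12601314 and 15521703 in control replicates 1 to 5 and 19942036, 15493672, 15827078, 16171463 and 18798025 in KTZ 12 replicates 1 to 5. Only control replicate 5 exceeded the smallest KTZ 12 total, and the difference of the means was larger than the spread between libraries (two-sided exact permutation test over 252 splits, p = 0.0159). Values are given below as counts per 1000000 (CPM) of the library total, and at these depths 3 counts, the most that a count of 0 allows, correspond to at most 0.238 CPM. No pair of replicates differed by as little as sampling noise, since chi-square per degree of freedom between replicates ran from 5.96 to 22.8.

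The dissection was checked against genes that mark neighbouring sites, and 1 control library went against its label. Lmx1a, a transcription factor of the mammillary and subthalamic region, was at 0.473, 0.534, 0.857, 15.2 and 0.580 CPM in control replicates 1 to 5, at 0.652 to 1.36 in the KTZ 12 libraries and at 2.46 to 20.1 in the 5 control libraries of the MBH. The library labelled POA control replicate 4 also carried the mammillary factor Foxb1 at 11.0 CPM, the histamine-synthesis gene Hdc at 98.9, the melanin-concentrating hormone gene Pmch at 1400.2 and the arcuate gene Pomc at 30.0 CPM, values that for all 4 genes fell inside the range of the MBH controls. Conversely it had the lowest level of GnRH (Gnrh1 0.794 CPM against 3.47 to 7.86 in the other 4 controls), of oxytocin (Oxt 8.33 against 70.5 to 210.3) and of estrogen receptor alpha (Esr1 13.0 against 21.8 to 35.8). Across 13872 genes its log2 CPM correlated at r = 0.984 with the mean of the other POA controls and at r = 0.994 with that of the MBH controls, whereas the remaining 9 libraries correlated more closely with the POA (r = 0.988 to 0.994) than with the MBH (r = 0.979 to 0.985). The MBH library of the same rat resembled the other MBH controls (r = 0.994 with the MBH, 0.983 with the POA). In view of these values the calls, log2 fold changes and medians of KTZ 12 against control below come from all 10 libraries, and the value without the library labelled control replicate 4 is added where leaving it out changed the call, the sign or the size by more than 1.5 times.

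**Figure D1:**
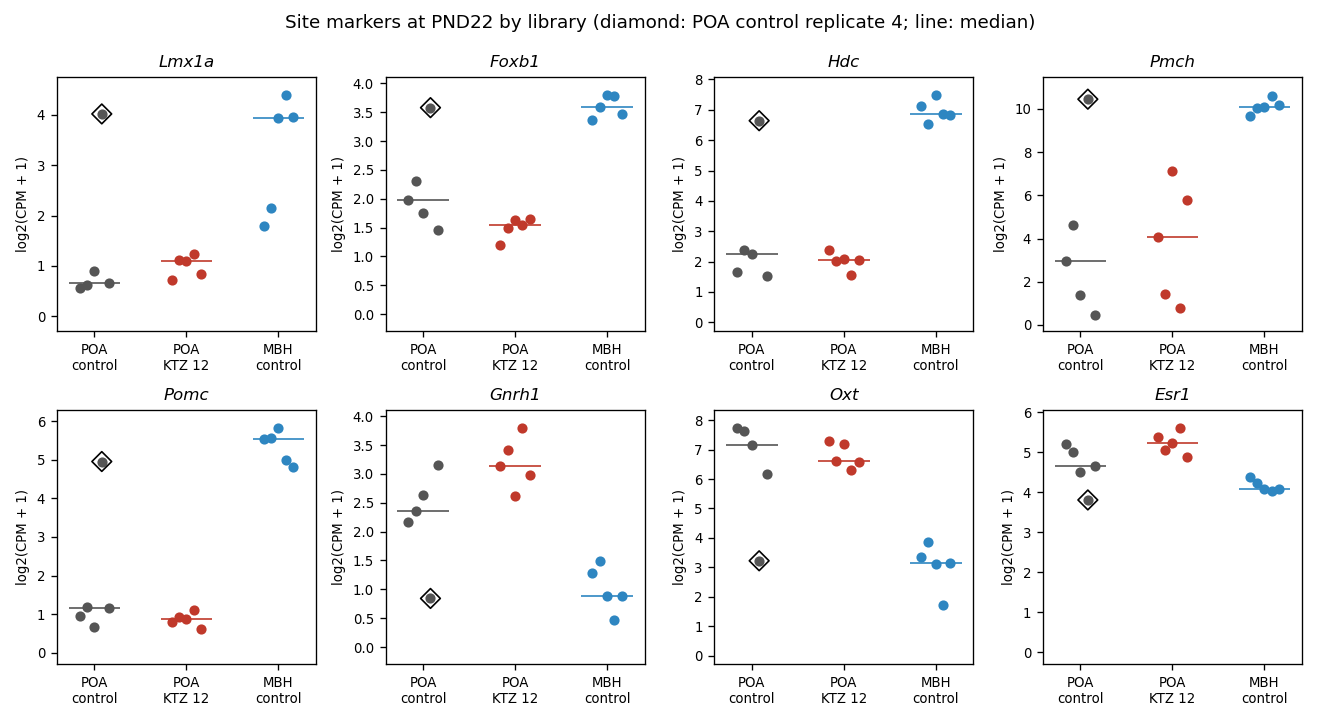
Level of 8 site marker genes as log2(CPM + 1) in each PND22 library of the POA control, POA KTZ 12 and MBH control groups, 5 libraries each, with the group median as a line and POA control replicate 4 marked by a diamond. For Lmx1a, Foxb1, Hdc, Pmch and Pomc the diamond sits among the MBH controls and above every other POA library; for Gnrh1, Oxt and Esr1 it is the lowest POA library.

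Many genes differed between KTZ 12 and control by small amounts. Of 14315 genes tested with edgeR, 561 passed an adjusted p of 0.05 (3.92%), 258 higher (1.8%) and 303 lower (2.12%) in KTZ 12 than in control. The median size of their change was 0.33 on the log2 scale, 465 of the 561 changed by less than 0.5 and 16 by more than 1, and for 464 of them the CPM ranges of the groups did not overlap. Over all genes tested 8.24% did not overlap, 6.17% with KTZ 12 higher and 2.07% with it lower, on a scale that takes no account of the mitochondrial share described below. Without the library labelled control replicate 4, 457 of 14418 genes passed (3.17%), 191 higher (1.32%) and 266 lower (1.84%). The lists shared 393 genes (70.1% of the first and 86% of the second, 165 higher and 228 lower), and none of the 561 changed sign. The number of calls also depended on other single libraries, being 197 without control replicate 3, 258, 271, 328, 335 and 351 without KTZ 12 replicates 3, 1, 2, 4 and 5.

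**Figure D2:**
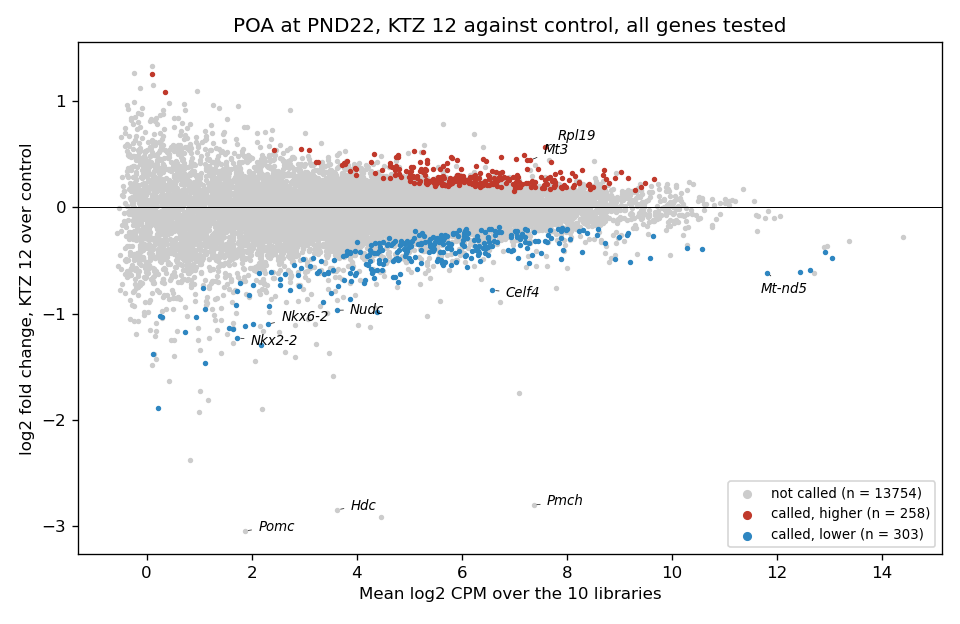
Log2 fold change of KTZ 12 over control in the POA at PND22 (vertical axis) against mean log2 CPM over the 10 libraries (horizontal axis), 1 point per gene tested, with the 258 higher genes in red, the 303 lower genes in blue and the remaining 13754 in grey. Nearly all called genes lie within 1 log2 unit of 0, and the grey points of large size include Pomc, Hdc and Pmch, genes carried by 1 control library.

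Over the 500 most variable genes the groups did not separate: the ratio of between-group to within-group squared distance was 1.53 (exact permutation test over 252 splits, p = 0.103, the smallest possible being 0.00794). Over all genes that passed the filter the ratio was 2.14 (p = 0.00794, by the same exact test), and over the 500 genes it was 1.92 without control replicate 4 and 0.946 without KTZ 12 replicate 1 (exact permutation p = 0.111 and 0.532). The first principal component of the 500 genes held 34.3% of the variance, and its largest score belonged to control replicate 4 (12.8, against -4.92 to 3.14 in the other 9 libraries).

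**Figure D3:**
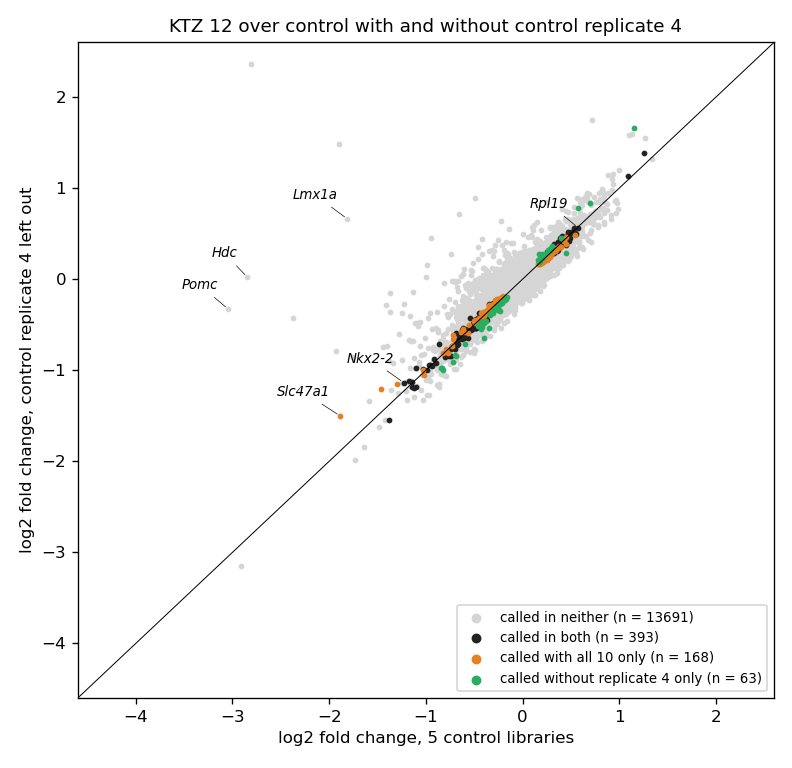
Log2 fold change of KTZ 12 over control with all 5 control libraries (horizontal axis) and with control replicate 4 left out (vertical axis), 1 point per gene tested in both fits, with the line of equality. The 393 genes called in both lie along the line, whereas Lmx1a, Hdc and Pomc, called in neither, move from below -1.8 to 0.66, 0.023 and -0.33 once the library is left out; 1 of the 64 genes called only without it was not tested with all 10 and is not drawn.

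Among genes that carry a symbol, average no less than 1 log2 CPM and passed with and without control replicate 4, the 15 largest falls included both homeobox factors of the oligodendrocyte lineage, Nkx2-2 (ENSRNOG00000012728), which patterns the ventral neural tube and promotes oligodendrocyte differentiation, and Nkx6-2 (ENSRNOG00000017748), a factor of mature oligodendrocytes. Their promoters, 250 bases before to 50 bases after the RefSeq transcription start in build GRCr8, are shown because these paralogous regulators fell together; capitals mark a GC box (GGGCGG on either strand). The Nkx2-2 promoter lies at chr3:155075573-155075872 on the minus strand and the Nkx6-2 promoter at chr1:203813073-203813372 on the minus strand.
Nkx2-2: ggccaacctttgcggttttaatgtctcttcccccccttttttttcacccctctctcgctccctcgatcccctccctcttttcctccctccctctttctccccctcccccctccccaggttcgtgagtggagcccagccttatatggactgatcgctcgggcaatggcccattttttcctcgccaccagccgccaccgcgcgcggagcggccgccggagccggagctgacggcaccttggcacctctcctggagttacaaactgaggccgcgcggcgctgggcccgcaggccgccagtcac
Nkx6-2: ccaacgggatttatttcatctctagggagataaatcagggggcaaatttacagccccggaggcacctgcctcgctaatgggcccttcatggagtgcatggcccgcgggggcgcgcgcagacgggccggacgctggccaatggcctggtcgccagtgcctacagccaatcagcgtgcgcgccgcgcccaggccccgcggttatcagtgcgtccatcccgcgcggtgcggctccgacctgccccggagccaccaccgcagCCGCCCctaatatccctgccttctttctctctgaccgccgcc
Nkx6-2 held 1 GC box and Nkx2-2 none, where 33.1% of 33469 promoters in the table hold at least 1. Neither held a TATA box (TATAAA) or a full CRE (TGACGTCA), found in 14.2% and 1.83% of promoters when both strands are read, and GC content was 64.7% for Nkx2-2 and 66.7% for Nkx6-2 against a median of 51.7%.

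Nkx2-2 was at 4.18, 5.87, 4.22, 5.71 and 2.83 CPM in control replicates 1 to 5 and at 1.70, 2.07, 2.02, 2.23 and 1.97 CPM in KTZ 12 replicates 1 to 5. Every KTZ 12 library lay below every control, and the level was 2.35-fold lower with a log2 fold change of -1.23 (SE 0.21) and an adjusted p of 0.00969 by edgeR. Nkx6-2 was at 5.60, 8.31, 7.84, 4.84 and 6.38 CPM in the controls and at 1.91, 4.26, 2.78, 3.71 and 3.30 CPM in KTZ 12. The groups again did not overlap, and the log2 fold change was -1.10 (SE 0.22), a 2.14-fold fall (edgeR adjusted p = 0.0192; 0.017 without control replicate 4). Since the tissue is bulk, fewer cells that carry a transcript and less of it per cell cannot be told apart, here or for any gene below.

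Of 16 oligodendrocyte lineage factors tested these were the 2 that passed, both lower, where 2.12% of all genes passed as lower. The list was chosen with earlier results of these data known, so that its share is no test of the lineage. The median change of the 16 was -0.35 against -0.0081 over all genes tested. The median over all genes was -0.0012 without control replicate 4, which holds also where it is given below. Bmp4, a ligand that restrains oligodendrocyte differentiation, had a log2 fold change of -0.83 (edgeR adjusted p = 0.101) and passed without control replicate 4 (adjusted p = 0.0339). The lineage factors Sox10 (-0.49), Olig1 (-0.29), Olig2 (-0.29) and Myrf (-0.46) had negative log2 fold changes that did not pass. None of 12 markers of myelinating oligodendrocytes passed, although all 12 log2 fold changes were below 0, with a median of -0.43. Their summed level was 14291, 29708, 26069.7, 17942 and 19987 CPM in control replicates 1 to 5 and 9490.1, 23866, 10883, 14981 and 21499.5 CPM in KTZ 12 replicates 1 to 5, so that the groups overlapped and the libraries of either group were widely spread. None of 6 markers of oligodendrocyte precursors passed (median -0.072; -0.12 without control replicate 4).

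The firmest fall of all belonged to Nudc (ENSRNOG00000051720), a co-chaperone of the dynein motor complex. It was at 15.8, 15.6, 15.0, 17.3 and 16.4 CPM in the controls and 8.42, 7.42, 9.54, 9.34 and 7.55 CPM in KTZ 12, so that the lowest control was 15.0 and the highest KTZ 12 library 9.54 CPM. Its log2 fold change was -0.97 (SE 0.10), a 1.96-fold fall, with an adjusted p of 0.00241 by edgeR, and it was called in all 10 fits that left out 1 library. Bag3, a co-chaperone of Hsp70 in autophagy, fell by 0.53 on the log2 scale (adjusted p = 0.0175). These were the 2 of 30 chaperone and unfolded protein response genes that passed (3.92% of all genes did), with a median of 0.025 over the 30 and log2 fold changes from -2.91 to 0.29. Nudc and this list were chosen with earlier results of these data known, so that the share is no test of the list.

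Others among the largest or list-defined falls were Celf4, Rbfox3, Nrgn, Cabp1, Chrna3 and Bean1. Celf4, a neuronal RNA-binding protein, was at 120.2, 120.1, 131, 121 and 105 CPM in control and 64.5, 64.3, 93.0, 77.0 and 59.6 CPM in KTZ 12. The groups did not overlap, and its log2 fold change was -0.78 (SE 0.11) with an edgeR adjusted p of 0.00355. Rbfox3, the splicing factor known as the neuronal marker NeuN, fell by 0.54 on the log2 scale (SE 0.085, adjusted p = 0.00677), from 58.5 ± 5.31 CPM in control to 41.5 ± 4.95 CPM in KTZ 12 (SD, n = 5 each), and was the 1 of 10 neuronal markers to pass, where 3.92% of all genes passed (median of the 10, -0.11). Neurogranin, the calmodulin-binding postsynaptic protein encoded by Nrgn, was at 90.6, 89.7, 89.8, 109.5 and 89.0 CPM in control and 62.4, 67.7, 72.5, 77.4 and 60.1 CPM in KTZ 12, with a log2 fold change of -0.51 (SE 0.081) and an adjusted p of 0.00735; control replicate 4 was the highest, and without it the change was -0.44 (adjusted p = 0.0113). Cabp1, a neuronal calcium sensor of the calmodulin family, fell by 0.86 on the log2 scale (adjusted p = 0.0249), by 0.71 without control replicate 4 (adjusted p = 0.0401), and was the 1 of 21 calcium-binding proteins to pass, a share near that of all genes. Cabp1 was called in only 6 of 10 fits that left out 1 library. Chrna3, a nicotinic acetylcholine receptor subunit, fell from 4.15 ± 0.668 to 2.25 ± 0.428 CPM (SD, n = 5 each; log2 fold change -0.92, adjusted p = 0.0171). Bean1, a membrane protein that binds the ubiquitin ligase Nedd4, fell from 9.20 ± 1.42 to 5.66 ± 1.05 CPM (log2 fold change -0.74, adjusted p = 0.0175).

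Nkd1, an inhibitor of Wnt signalling that Wnt itself induces, was at 19.961, 35.5, 31.8, 26.9 and 23.2 CPM in control and 9.53, 19.2, 12.4, 12.6 and 17.8 CPM in KTZ 12. The highest KTZ 12 library came within 1 CPM of the lowest control without crossing it, and the log2 fold change was -0.99 (SE 0.20) (edgeR adjusted p = 0.0192; 0.0309 without control replicate 4). Axin2, another negative feedback gene of the pathway, was named after its values were seen. It fell by 0.45 on the log2 scale (edgeR adjusted p = 0.0241) but was called in only 6 of 10 fits that left out 1 library. Genes of the Wnt pathway were not counted as a list, so the values stand for Nkd1 and Axin2 alone.

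The remaining genes with the largest falls were Zfp580, Fam222a, Emilin2, Col14a1, Creb5, Ubald2, Mn1 and Gm5471, with log2 fold changes from -1.14 to -0.76 and adjusted p from 0.00355 to 0.0454. Emilin2, an extracellular matrix glycoprotein, fell from 5.41 ± 1.06 to 2.59 ± 0.554 CPM, and Col14a1, a fibril-associated collagen, from 2.72 ± 0.525 to 1.45 ± 0.199 CPM (SD, n = 5 each). Ubald2 was at 14.2, 14.9, 12.1, 12.2 and 12.4 CPM in control and 7.02, 6.45, 8.85, 7.92 and 6.28 CPM in KTZ 12, without overlap. Mn1, a transcriptional coregulator, fell from 14.2 ± 2.14 to 8.44 ± 1.16 CPM. Creb5, Col14a1 and Gm5471 were called in 4, 7 and 1 of the 10 fits that left out 1 library, Ubald2 and Mn1 in all 10. Among called genes the change moved most without control replicate 4 for Slc47a1 (-1.89 to -1.5), Abi3bp (-1.47 to -1.20), Trnp1 (-1.38 to -1.54), Cabp1 and AABR07032255.2 (-1.29 to -1.16), and Slc47a1, Abi3bp and AABR07032255.2 then no longer passed (adjusted p = 0.07, 0.0598 and 0.0841).

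Under the same limits of symbol, level and a call with and without control replicate 4, the largest rise was that of Rpl19, and 3 of the 4 largest were ribosomal protein genes. The promoters of Rpl19 and Rps28, which encode proteins of the large and the small ribosomal subunit, are shown because these genes rose together; they lie at chr10:83518814-83519113 on the plus strand and chr7:15311284-15311583 on the minus strand of GRCr8, and capitals mark a TATA box.
Rpl19: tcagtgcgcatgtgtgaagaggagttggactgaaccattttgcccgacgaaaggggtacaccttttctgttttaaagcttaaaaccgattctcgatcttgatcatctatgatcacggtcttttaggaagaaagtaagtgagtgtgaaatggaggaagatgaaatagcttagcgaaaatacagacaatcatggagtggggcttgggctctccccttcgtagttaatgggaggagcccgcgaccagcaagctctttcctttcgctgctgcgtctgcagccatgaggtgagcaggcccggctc
Rps28: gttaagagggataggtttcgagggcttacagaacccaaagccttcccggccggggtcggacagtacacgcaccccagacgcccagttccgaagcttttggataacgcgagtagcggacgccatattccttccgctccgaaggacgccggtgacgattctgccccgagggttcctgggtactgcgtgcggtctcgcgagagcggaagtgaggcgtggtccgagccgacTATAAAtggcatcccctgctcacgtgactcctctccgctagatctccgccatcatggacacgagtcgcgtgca
Rps28 held 1 TATA box and Rpl19 none of the 3 motifs, with GC contents of 60.7% and 49%.

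Rpl19 (ENSRNOG00000004741) was at 141, 157, 150.4, 147 and 159 CPM in control and 256, 209, 253, 248 and 194 CPM in KTZ 12. The controls were tightly grouped, every KTZ 12 library was above all of them, and the rise was 1.49-fold with a log2 fold change of 0.57 (SE 0.076) and an edgeR adjusted p of 0.00355. Rps28 was at 27.9, 30.4, 33.0, 30.4 and 31.4 CPM in control and 45.7, 47.8, 42.6, 45.0 and 46.1 CPM in KTZ 12, again without overlap, with a log2 fold change of 0.52 (SE 0.065) (adjusted p = 0.00355). Of 74 cytosolic ribosomal protein genes tested, a group chosen after values had been seen, 13 rose and 1, Rpl36 (log2 fold change -0.53, adjusted p = 0.0233), fell, where 1.8% of all genes passed as higher and 2.12% as lower, with a median of 0.095 against -0.0081 for all genes; 17 rose and 1 fell without control replicate 4. The others that rose ranged from Rpl4 (0.19) to Rpl22l1 (0.53), the latter a paralog of Rpl22. Ribosomal protein genes have many near-identical processed pseudogenes, how reads shared between copies were counted is not given in the sources used here, and the values of single members are therefore uncertain. Sec61g, a subunit of the endoplasmic reticulum protein channel, rose from 22.3 ± 2.79 to 32.4 ± 2.07 CPM (SD, n = 5 each; log2 fold change 0.49, adjusted p = 0.0124).

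Txn1, the cytosolic thioredoxin, and Mt3, the brain metallothionein that binds zinc and copper, rose. Txn1 was at 42.6, 47.1, 42.4, 52.6 and 47.5 CPM in control and 64.5, 67.3, 70.0, 62.5 and 67.2 CPM in KTZ 12. The groups did not overlap, and its log2 fold change was 0.47 (SE 0.065) with an edgeR adjusted p of 0.00401. Mt3 was at 115, 131, 142, 119 and 148 CPM in control and 175, 193, 182, 182 and 189 CPM in KTZ 12, also without overlap (log2 fold change 0.44 (SE 0.076), adjusted p = 0.00999). Cyb561, a transmembrane ascorbate-dependent reductase of neuroendocrine vesicles, rose from 109 ± 5.46 to 154 ± 15.7 CPM (log2 fold change 0.46, adjusted p = 0.00598). Map1lc3a, an autophagosome protein, rose from 126 ± 9.40 to 177 ± 14.3 CPM (log2 fold change 0.44, adjusted p = 0.0077). Cbln2, a secreted synapse organizer, rose by 0.45 on the log2 scale (adjusted p = 0.0284) but was called in only 6 of 10 fits that left out 1 library. The remaining members of the 15 largest rises were Zbtb46 and Klf16, zinc finger transcription factors, B3galt6, a galactosyltransferase of proteoglycan synthesis, Phf13, a chromatin reader, and Wdr31, with log2 fold changes of 0.55, 0.48, 0.50, 0.47 and 0.44. For all 5 the KTZ 12 libraries lay above every control.

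Called genes of the mitochondrial genome fell, and called nuclear genes of the respiratory chain rose. The 13 protein-coding genes of the mitochondrial genome took 8.30, 7.06, 8.94, 8.60 and 8.63% of the counts in control replicates 1 to 5 and 6.44, 7.65, 5.35, 6.41 and 6.57% in KTZ 12 replicates 1 to 5. Only KTZ 12 replicate 2 reached into the control range, where it exceeded control replicate 2. All 13 had log2 fold changes below 0 (median -0.43), 7 passed as lower (2.12% of all genes did) and none as higher; the least changed were Mt-nd3 (-0.027) and Mt-nd6 (-0.031). Mt-nd5, a subunit of complex I, was at 4456, 3427, 4769, 4771 and 4046 CPM in control and 2773, 3494, 2347, 2944 and 2889.9 CPM in KTZ 12. KTZ 12 replicate 2 was above control replicate 2, and the log2 fold change was -0.61 (SE 0.11) (edgeR adjusted p = 0.0123; 0.0266 without control replicate 4). Mt-co2, a subunit of cytochrome c oxidase, fell by 0.42 on the log2 scale without overlap between the groups (adjusted p = 0.0142). Mt-nd1, Mt-nd2, Mt-atp6, Mt-atp8 and Mt-nd4l also passed, with log2 fold changes from -0.61 to -0.47, and Mt-nd1, Mt-nd2 and Mt-nd4l were called in only 3, 3 and 2 of 10 fits that left out 1 library. Mt-atp6 and Mt-atp8 were called in 7 and 6 of those fits. Without control replicate 4, 6 of the 13 passed, and Mt-nd4l did not (adjusted p = 0.0786).

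Of 31 nuclear genes of oxidative phosphorylation tested, 4 rose, where 1.8% of all genes did, and none fell, with a median of 0.056. Atp5mc1, the membrane ring subunit of ATP synthase, was at 81.5, 82.4, 95.7, 79.2 and 104 CPM in control and 115, 138, 134, 121 and 127 CPM in KTZ 12. All KTZ 12 libraries were above all controls, with a log2 fold change of 0.47 (SE 0.087) and an edgeR adjusted p of 0.0125. Ndufa2 of complex I, Cox7c of cytochrome c oxidase and Sdhc of succinate dehydrogenase rose by 0.40, 0.34 and 0.29 on the log2 scale (adjusted p = 0.0123, 0.00933 and 0.0248), also without overlap. With 1 library left out Sdhc was called in only 5 of 10 fits, Ndufa2 and Cox7c in all 10. Uqcrq of complex III had a log2 fold change of -0.34 that passed without control replicate 4 (adjusted p = 0.0473) but not with all 10 (adjusted p = 0.0577). When the mitochondrial genes were removed before scaling, 551 genes passed.

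**Figure D4:**
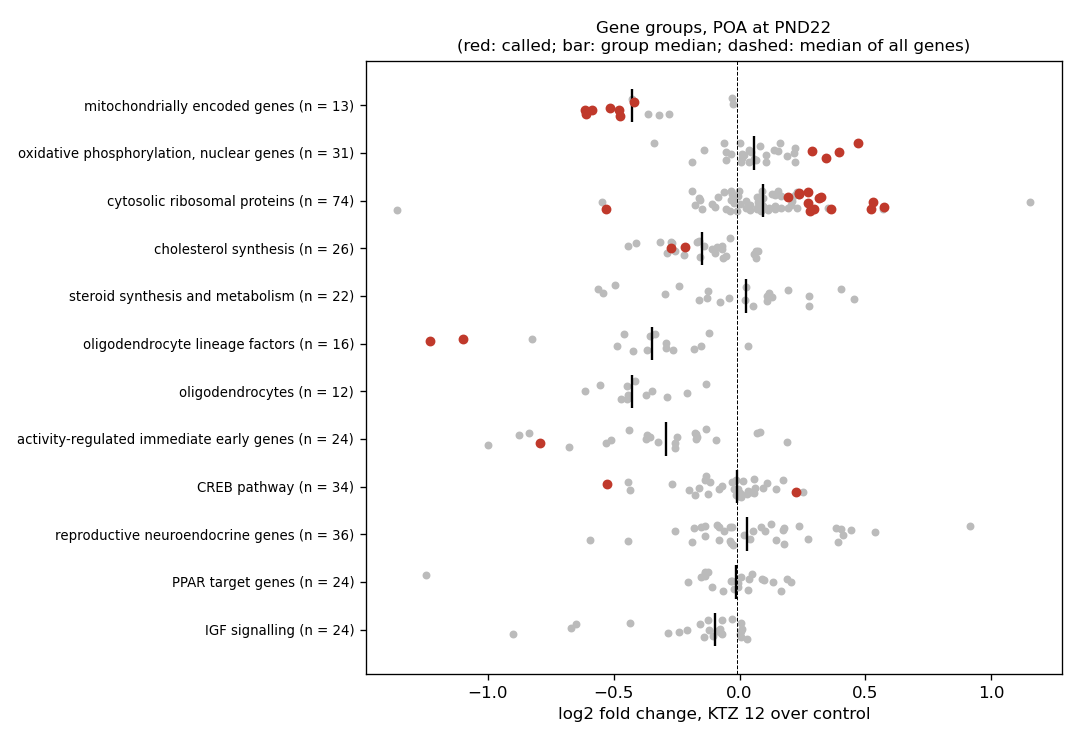
Log2 fold change of KTZ 12 over control (horizontal axis) for the tested members of 12 gene groups, 1 point per gene, called genes in red, the group median as a bar and the median of all genes as a dashed line. The 13 mitochondrially encoded genes lie at or below -0.027 with 7 called, and 13 of 74 ribosomal protein genes are called to the right. No member of the steroid synthesis, reproductive, PPAR or IGF groups is called, where 3.92% of all genes are.

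Of 26 genes of cholesterol synthesis and its control tested, the pathway on which KTZ acts, 2 passed, both lower, where 2.12% of all genes did, and both were called in few of the 10 fits that left out 1 library, Sqle in 1 and Sc5d in 2. Of the 26, 22 had log2 fold changes below 0 and the median was -0.15 against -0.0081 for all genes. Sqle, squalene epoxidase, was at 129.9, 158, 146, 139.6 and 137 CPM in control and 118, 128, 109, 128 and 125 CPM in KTZ 12, without overlap (log2 fold change -0.27 (SE 0.069), edgeR adjusted p = 0.046), but it did not pass without control replicate 4 (adjusted p = 0.0617). Sc5d, the lathosterol oxidase, fell by 0.22 on the log2 scale (adjusted p = 0.0409; 0.0483 without control replicate 4). Cyp51, the lanosterol demethylase, was at 203, 358, 308, 239.6 and 269 CPM in control and 186, 239, 174, 226 and 244 CPM in KTZ 12. The ranges overlapped and the log2 fold change of -0.41 (SE 0.15) did not pass (adjusted p = 0.13; 0.0497 by DESeq2). None of 22 genes of steroid synthesis and metabolism passed (median 0.024; 0.049 without control replicate 4), among them Cyp19a1, aromatase, at 2.39 ± 0.759 CPM in control and 3.40 ± 0.656 CPM in KTZ 12 (log2 fold change 0.45 (SE 0.24), adjusted p = 0.321; 0.28 (SE 0.19) without control replicate 4). None of 21 genes of xenobiotic metabolism passed (median -0.086; -0.0027 without control replicate 4).

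Among 25 steroid and nuclear receptors tested, 2 passed, both lower, where 2.12% of all genes passed as lower. Nr1h2, the oxysterol receptor LXR-beta, was at 27.7, 25.1, 28.1, 25.4 and 24.9 CPM in control and 17.7, 21.4, 22.2, 22.2 and 22.7 CPM in KTZ 12. The groups did not overlap, and the log2 fold change was -0.35 (SE 0.084) (edgeR adjusted p = 0.0364; 0.0518 without control replicate 4), but it was called in none of the 10 fits that left out 1 library. Ppard, the ubiquitous PPAR subtype, fell by 0.34 on the log2 scale (adjusted p = 0.0361) and was called in 1 of 10 fits that left out 1 library. Pparg was too low to test, at 0 to 0.473 CPM over the 10 libraries, Ppara had a log2 fold change of 0.04 (SE 0.20) (0.018 without control replicate 4), and none of 24 PPAR target genes passed (median -0.015; without control replicate 4 the median was -0.032 and 1 passed).

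In the CREB pathway 2 of 34 genes tested passed, 1 in each direction, where 3.92% of all genes passed, and the median was -0.0096. Crtc1, the coactivator that carries calcium and cAMP signals to CREB, was at 45.1, 41.8, 45.7, 44.1 and 39.0 CPM in control and 31.3, 27.9, 34.7, 31.6 and 28.9 CPM in KTZ 12. It fell without overlap, with a log2 fold change of -0.53 (SE 0.068) and an edgeR adjusted p of 0.00355. Prkaca, the catalytic subunit of protein kinase A, rose by 0.22 (adjusted p = 0.0375) and did not pass without control replicate 4 (adjusted p = 0.0628). Of 24 activity-regulated immediate early genes 21 had log2 fold changes below 0 (median -0.29), but 1, Gadd45g, passed (-0.79, adjusted p = 0.0361; 0.0611 without control replicate 4, where Junb passed instead at 0.0331); Fos had a log2 fold change of -0.68 with an SE of 0.34 (adjusted p = 0.274). None of 24 IGF signalling genes (median -0.10; -0.061 without control replicate 4) and none of 29 oxytocin signalling genes (median -0.049) passed.

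Among hormone-responsive and clock genes, Klf9, a transcription factor induced by thyroid hormone and glucocorticoids, was at 43.9, 45.8, 51.3, 46.3 and 46.0 CPM in control and 37.6, 39.6, 33.4, 36.1 and 40.3 CPM in KTZ 12. It fell without overlap by 0.36 on the log2 scale (edgeR adjusted p = 0.0171), and it was the 1 of 17 glucocorticoid-responsive genes to pass, where 3.92% of all genes passed, 1.8% as higher and 2.12% as lower (median -0.21). Of 13 thyroid hormone response genes 2 passed, Klf9 again and Nrgn, both lower. Of 18 clock genes 3 passed, the output factors Tef (0.26), which rose, and Dbp (-0.24) and Bhlhe41 (-0.40), which fell (adjusted p = 0.022, 0.0297 and 0.0398); Dbp and Bhlhe41 did not pass without control replicate 4 (adjusted p = 0.054 and 0.0552). Gabrg1, a GABA-A receptor subunit, rose by 0.27 (adjusted p = 0.0409) as the 1 of 36 genes of GABA and glutamate transmission to pass, a share near that of all genes, and did not pass without control replicate 4 (adjusted p = 0.0561).

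None of 36 reproductive neuroendocrine genes tested passed, where 3.92% of all genes did, with a median log2 fold change of 0.03. A count of none among 36 is near that share and does not show that these genes were unchanged. Gnrh1 was at 3.47, 4.12, 5.21, 0.794 and 7.86 CPM in control replicates 1 to 5 and at 7.82, 9.62, 5.12, 12.9 and 6.92 CPM in KTZ 12. KTZ 12 reached higher but the ranges overlapped, and the log2 fold change of 0.92 (SE 0.39) did not pass (edgeR adjusted p = 0.207); without control replicate 4, which had the lowest value, it was 0.66 (SE 0.28) (adjusted p = 0.225). Esr1, estrogen receptor alpha, was at 35.8, 31.3, 21.8, 13.0 and 24.4 CPM in control and 40.8, 32.5, 36.6, 47.6 and 28.6 CPM in KTZ 12. Its ranges overlapped, with a log2 fold change of 0.52 (SE 0.21) with all libraries and 0.36 (SE 0.16) without control replicate 4 (adjusted p = 0.189 and 0.238). The progesterone receptor Pgr and the neuropeptide galanin (Gal) had log2 fold changes of 0.31 (SE 0.12) and 0.086 (SE 0.16). Kiss1, the kisspeptin gene, was near the limit of what the depth can show, at 0.229 to 1.89 CPM over the 10 libraries, and no difference was detectable at this depth. Oxt had a log2 fold change of -0.19 (SE 0.52) with all libraries and -0.49 (SE 0.27) without control replicate 4, and Avp, vasopressin, of 0.39 (SE 0.46) and 0.21 (SE 0.46). Igsf10, a gene implicated in GnRH neuron migration, was at 19.2 ± 4.37 CPM in control and 19.9 ± 3.48 CPM in KTZ 12 (log2 fold change 0.017 (SE 0.16); 0.10 (SE 0.16) without control replicate 4).

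Markers of other cell types and neighbouring sites were counted in the same way. None passed among 10 astrocyte, 10 microglial, 8 endothelial, 7 ependymal and tanycyte, 5 choroid plexus, 8 meningeal and 5 blood genes tested, or among 15 preoptic, 9 arcuate, 9 striatal, 6 cortical, 10 thalamic, 7 paraventricular and supraoptic, 9 suprachiasmatic and 3 pituitary genes; without control replicate 4 the suprachiasmatic peptide gene Grp passed as lower (log2 fold change -0.83, adjusted p = 0.0454). The meningeal genes had a median of -0.71 with all libraries and -0.34 without control replicate 4, whose summed level of 993 CPM compared with 163 to 377 CPM in the other controls and 152 to 274 CPM in KTZ 12; the most abundant was Ptgds. Tshz2, listed with the lateral and dorsal hypothalamus, fell by 0.35 on the log2 scale (edgeR adjusted p = 0.0454; 0.0823 without control replicate 4), as 1 of 5 such genes (3.92% of all genes passed), and Nrgn was the 1 of 10 septal genes to pass (median -0.50); without control replicate 4 the transcription factor Zic1 passed as well, with a log2 fold change of -0.65 (adjusted p = 0.00585), and the median was -0.73. The summed level of 16 preoptic markers was 983, 882, 806, 798 and 840.4 CPM in control and 1039, 942, 1036, 1157 and 860.5 CPM in KTZ 12, with overlap. The mammillary genes Foxb1 (-1.27 (SE 0.43)), Lmx1a (-1.81 (SE 0.91)) and Hdc (-2.85 (SE 1.02)) did not pass, and without control replicate 4 their log2 fold changes were -0.61, 0.66 and 0.023. The part of these cell types and sites in the changes above was not tested.

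The question of dose was addressed with the KTZ 3 and KTZ 6 groups. Against the same 5 controls, 285 of 14335 genes passed for KTZ 3 (1.99%) and 602 of 14329 for KTZ 6 (4.2%), and without control replicate 4 they were 279 of 14429 (1.93%) and 542 of 14412 (3.76%). Because the controls are shared, the 3 comparisons are not independent, and the values are set side by side. Nkx2-2 averaged 4.56 ± 1.25, 2.28 ± 0.669, 2.05 ± 0.199 and 2.00 ± 0.190 CPM in control, KTZ 3, KTZ 6 and KTZ 12 (SD, n = 5 each). Nudc averaged 16.0 ± 0.865, 9.92 ± 1.53, 8.30 ± 1.85 and 8.46 ± 0.979 CPM in the same order. Rpl19 averaged 151 ± 7.45, 221 ± 28.3, 222 ± 31.0 and 232 ± 28.5 CPM. In these 3 genes the control mean lay further from each dose than the means of the doses lay from each other. Mt-nd5 averaged 4294 ± 569, 3448 ± 251, 3357 ± 223 and 2889 ± 411 CPM. Zbtb46, where KTZ 12 lay highest, averaged 5.95 ± 0.595, 7.58 ± 0.956, 6.97 ± 0.998 and 8.98 ± 0.235 CPM. Celf4 in KTZ 3 was spread widely, at 65.4 to 131 CPM, 1 library reaching above the controls.

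**Figure D5:**
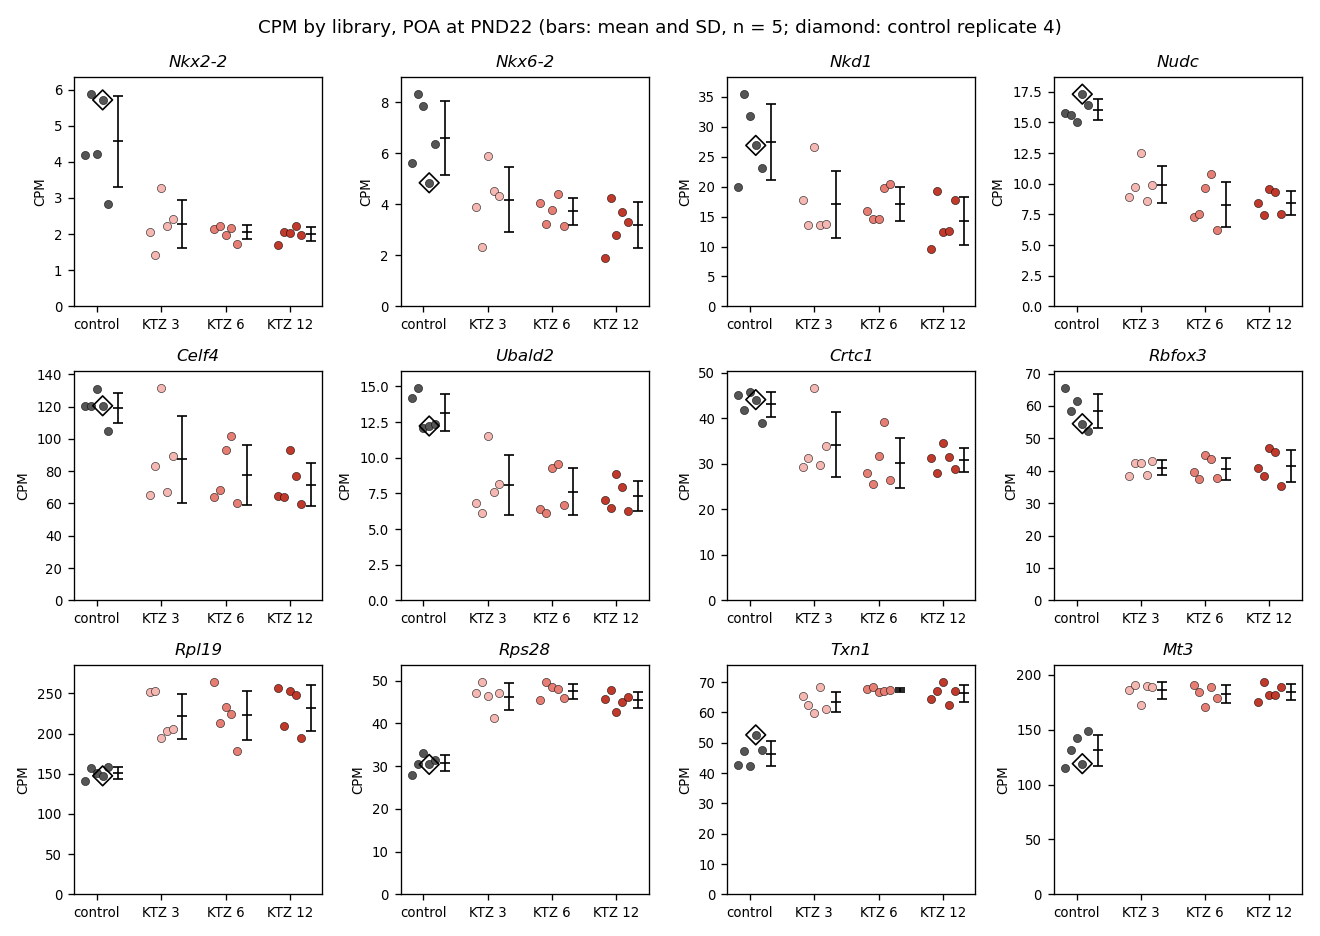
CPM of 12 genes in each POA library at PND22 by KTZ dose (mg/kg bw/day), with mean and SD as bars (n = 5 each) and control replicate 4 as a diamond; each vertical axis starts at 0. Rpl19, Rps28, Txn1 and Mt3 lie above every control in all 3 KTZ groups, and the diamond lies among the other controls for most genes.

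Tested directly, none of 14426 genes passed between KTZ 12 and KTZ 6 (354 with an unadjusted p under 0.05 in edgeR; 1 gene by DESeq2) and none of 14453 between KTZ 12 and KTZ 3 (1016 with an unadjusted p under 0.05; 13 by DESeq2). For Nkx2-2 the log2 fold change of KTZ 12 over KTZ 6 was -0.049 (SE 0.17), for Nudc 0.023 (SE 0.15), for Rpl19 0.051 (SE 0.10) and for Txn1 -0.035 (SE 0.045), which does not show that the doses act alike. Zbtb46 had the value 0.36 (SE 0.11) over KTZ 6 and 0.25 (SE 0.11) over KTZ 3 (edgeR adjusted p = 1 and 0.694). Compared with the synthetic estrogen DES, a choice made after seeing the data, KTZ 12 differed in 220 genes from DES 3, in 324 from DES 6 and in 1 of 14481 from DES 12 (1.53%, 2.25% and 0.00691% of the genes tested); the counts were 715, 695 and 191 by DESeq2 and 34 to 461, 60 to 336 and 0 to 121 in edgeR with 1 library left out. Rpl19 averaged 163 ± 13.0, 149 ± 10.7 and 209.9 ± 44.4 CPM at DES 3, 6 and 12, the last nearest to the 232 ± 28.5 CPM of KTZ 12, whereas Nudc averaged 14.3 ± 2.24, 13.5 ± 2.43 and 12.8 ± 1.58 CPM, all above the 8.46 ± 0.979 CPM of KTZ 12.

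In the MBH of the same rats 5529 of 14817 genes passed between KTZ 12 and control (37.3%), and the difference between KTZ 12 and control was not the same in both tissues for 3530 of 15626 genes (22.6%) by an interaction term. Levels of site markers also differed in the MBH: Hdc was at 90.9 to 177 CPM in its control and 35.3 to 68.2 CPM in its KTZ 12 libraries, Foxb1 at 9.31 to 13.0 and 4.03 to 8.08, and Oxt at 2.28 to 13.6 and 14.6 to 86.6, without overlap. Its KTZ 12 libraries correlated with the MBH controls at r = 0.973 to 0.986 and with the POA controls at r = 0.966 to 0.978 (MBH controls among themselves, 0.992 to 0.996), and the part of the dissection in the MBH and interaction values was not tested. Of the 561 POA genes 301 (53.7%) had the same sign in the MBH, where 48.9% of all genes tested in both did. Emilin2 differed between the tissues, falling in the POA (-1.10) and averaging 4.39 ± 1.43 CPM in control and 8.66 ± 1.503 CPM in KTZ 12 in the MBH, with an interaction of -2.17 (SE 0.29) and an edgeR adjusted p of 0.000534. Nkx6-2 had a log2 fold change of 0.50 in the MBH (interaction -1.61 (SE 0.31), adjusted p = 0.00304) and Nkx2-2 of -0.50 (interaction -0.75 (SE 0.23), adjusted p = 0.0308). Nudc averaged 10.9 ± 1.96 and 10.2 ± 1.10 CPM in the MBH (interaction -0.94 (SE 0.17), adjusted p = 0.00215). For Rpl19, Rps28 and Txn1 the log2 fold changes in the MBH were 0.18, 0.34 and 0.30, and no interaction passed (adjusted p = 0.0806, 0.262 and 0.254). Without POA control replicate 4 the interaction passed for 3448 genes.

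At PND42, after exposure had ended, 1 of 14481 genes (0.00691%) passed between KTZ 12 and control (1620 with an unadjusted p under 0.05 in edgeR; 238 by DESeq2), and of the 561 genes 199 (35.5%) had the same sign as at PND22, against 45.4% of all genes. Nkx2-2 at PND42 was at 1.28, 1.94, 2.46, 1.61 and 2.23 CPM in control and 1.31, 1.97, 1.44, 1.78 and 2.54 CPM in KTZ 12, which overlap, with a log2 fold change of -0.065 (SE 0.24). Rpl19, Nudc and Mt-nd5 had log2 fold changes of 0.02, 0.40 and -0.022 at that age, none of which passed. Gnrh1 at PND42 was at 8.02, 7.95, 7.01, 10.1 and 9.30 CPM in control and 16.6, 13.2, 19.997, 12.3 and 12.0 CPM in KTZ 12, without overlap (log2 fold change 0.81 (SE 0.15), adjusted p = 0.0799).

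At PND90 the comparison could not be read as an effect of KTZ, because all 5 libraries labelled POA KTZ 12 resembled the MBH. They had Lmx1a at 11.5 to 15.8 CPM, where the POA controls of that age had 0.237 to 0.700 and the MBH controls 7.45 to 18.6, and Gnrh1 at 0.306 to 0.831 against 6.12 to 25.2 CPM in the POA controls. They correlated with the MBH controls at r = 0.994 to 0.995 and with the POA controls at r = 0.973 to 0.979 over 13864 genes. At that age 4375 of 14682 genes passed (29.8%), and KTZ and dissection site cannot be told apart.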

How the data were processed

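PolyA RNA of the dissected POA and MBH was sequenced as paired reads from stranded TruSeq mRNA libraries. The authors aligned the reads to Rnor_6.0 with STAR within the nf-core rnaseq pipeline, counted them per Ensembl release 102 gene with featureCounts and deposited raw counts for 32883 genes, 1 table per tissue. The strand and multiple-mapping settings are not given in the sources used here, so that overlapping or near-identical genes may share counts. The submitters' processing notes also name bcl2fastq 2.20.

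Groups came from the sample titles. The counts as deposited were filtered (filterByExpr, minimum count 10), scaled by TMM and tested with the quasi-likelihood F-test of edgeR 4.0.16 in R 4.3.3, separately for each pair of groups. Standard errors were derived from the fold change and its F statistic, and genes were called at a Benjamini-Hochberg adjusted p of 0.05 with no fold threshold, as in the study; the study used DESeq2, which served as an alternative (DESeq2 1.42.0), with limma 3.58.1 as another. The interaction was fitted over POA and MBH with the rat as a block, since each rat gave a library of both tissues; deviations from the group means correlated over 0.1 in 1 of 10 rats (-0.136 to 0.119). Distances and the principal components used the variance stabilizing transformation of DESeq2 over 500 genes. CPM in the text is the count divided by the library total and multiplied by 1000000, without TMM. Tested on data simulated after these controls, edgeR recovered 60% of 100 genes changed by 0.5 on the log2 scale. Of 100 genes changed by 1 it recovered 88%. Beside these it made 12 false calls, out of 14353 genes tested. Changes under 0.5, which 465 of the 561 called genes had, were not simulated.

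The genes named were the 15 with the largest change in each direction among those with a symbol, an average log2 CPM no lower than 1, and a call both with and without control replicate 4, the called members of the gene lists, a fixed set of reproductive, PPAR, sterol and site genes together with Nkx2-2, Nudc, Ubald2, Bean1 and Cabp1, and the 5 called genes whose change moved most without that library. The members and lists were chosen with earlier results of these data known, and the lists carry no test of their own. Promoters were taken from RefSeq (GRCr8) by symbol and matched 53 of 79 named genes. Some genes that these rules name are not reported here. Alternatives comprised other scaling factors and tests, no filter, counts thinned to the smallest total, joint fits of more groups, the replicate number as a block, and each library left out. Leaving out control replicate 4 from the DESeq2 fit and from those of KTZ 3 and KTZ 6, removing mitochondrial genes and the DES comparisons were added after seeing the data.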

Additional observations from a re-analysis of the deposited data

Results flagged for a closer look

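Among 162 sets of 5 values of named genes and library measures, 9 had a highest or lowest library whose gap to the next exceeded the 95% critical value of Dixon's test (0.71 for 5 libraries), and chance gives about 1 in 20. Control replicate 4 accounted for 7 of them. It was the highest control for Foxb1 (11.0 CPM), Lmx1a (15.2 CPM), Hdc (98.9 CPM), Pmch (1400.2 CPM), Pomc (30.0 CPM) and Nrgn (109.5 CPM) and the lowest for Trnp1 (0.714 CPM). Foxb1, Lmx1a, Hdc, Pmch and Pomc were named as site genes with this library already known to stand apart. Trnp1 was named because its change moved when the library was left out. The flags of these genes follow from that choice and cannot be set against the rate given by chance. The remaining 2 of the 9 were in KTZ 12, where replicate 2 was highest for Sec61g (36.1 CPM) and replicate 1 lowest for Nr1h2 (17.7 CPM).

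Of 30 genes named for the size of their change, 20 had a change from control to KTZ 12 that was not the same in POA and MBH. This was by the interaction term of edgeR (adjusted p under 0.05), against 22.6% of all genes. These genes were chosen for their change in the POA, which also enters the interaction, so that their share is no evidence of a tissue difference. The difference, POA minus MBH on the log2 scale, was above 0 for Zbtb46 (0.80), B3galt6 (0.76), Klf16 (0.37), Phf13 (0.53), Cyb561 (0.44) and Wdr31 (0.41). It was below 0 for Mt3 (-0.33), Nkx2-2 (-0.75), Fam222a (-1.67), Nkx6-2 (-1.61), Emilin2 (-2.17), Nkd1 (-1.57), Nudc (-0.94), Col14a1 (-1.33), Creb5 (-1.12), Chrna3 (-2.68), Ubald2 (-1.14), Cabp1 (-1.09), Mn1 (-0.92) and Celf4 (-0.48). Mt3 rose in both tissues, by 0.44 in the POA and by 0.78 in the MBH, and Chrna3 had log2 fold changes of -0.92 and 2.29. In the MBH, Chrna3 was at 69.8 CPM in KTZ 12 replicate 4 and at 4.18 to 16.5 CPM in the other KTZ 12 libraries. The MBH controls were at 2.22 to 6.48 CPM. The sizes of 2.29 and of the difference of -2.68 therefore depend on that 1 library.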

How the results depend on the processing

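The count of 561 genes stayed within 1.5 times under RLE factors (553), upper quartile factors (627), no filter (444), thinned counts (552), limma-trend (588) and without mitochondrial genes (551). It was 1165 by DESeq2 (1013 without control replicate 4), 1127 in 1 fit of control and the 3 KTZ groups, 1268 in 1 fit of all 7 groups and 78 at an adjusted p under 0.01, and 197 to 457 with 1 library left out. Replicate numbers did not pair the groups (deviations correlated over 0.1 in 1 of 5 pairs, and 2 of 10 libraries correlated best with their own number); with the replicate block 278 genes passed, 247 of them shared. More genes were higher than lower with upper quartile factors (334 and 293). The same held in the fit of control and the 3 KTZ groups (584 and 543) and in that of all 7 groups (694 and 574). Every other setting gave more lower than higher genes, with 86 higher and 192 lower under the replicate block. The cause of these shifts was not tested.

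With 1 library left out, 0 to 1 gene passed against KTZ 6 and 0 to 2 against KTZ 3, and DESeq2 gave 1 and 13. At PND42 the count was 238 by DESeq2, 9 with upper quartile factors, 19 without a filter, 0 with the replicate block and 0 to 20 with 1 library left out. Against DES 3, DES 6 and DES 12, DESeq2 gave 715, 695 and 191 genes, the replicate block 135 and 12 for DES 3 and DES 12, and leaving out 1 library 34 to 461, 60 to 336 and 0 to 121. The separation ratio was 2.14 over all genes and 0.946 to 1.92 with 1 library left out, the lowest without KTZ 12 replicate 1, and the interaction and PND90 counts stayed within 1.5 times.

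Of 62 called genes followed through the alternatives, 17 were called in 3 or fewer of the 10 fits that left out 1 library. Nr1h2 was called in none, and Gm5471, Bhlhe41, Tshz2, Sqle, Prkaca and Ppard were called in 1. Sc5d, Gabrg1, Gadd45g, Mt-nd4l and AABR07032255.2 were called in 2, and Dbp, Mt-nd1, Mt-nd2, Slc47a1 and Abi3bp in 3. Of the uncalled genes named, Cyp51 passed by DESeq2 and in the fit of all 7 groups (adjusted p = 0.0497 and 0.042), Esr1 in the fit of all 7 groups (adjusted p = 0.0403), and Foxb1, Hdc and Pomc in 3, 2 and 2 alternatives.

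None of the 62 called genes followed through the alternatives reversed, and Rpl4 and Rpl36 were not among them. Log2 fold changes of uncalled genes that did were, for Oxt, 0.19 with the replicate block and 0.39 with limma-trend, and for Pmch, 0.61 with the block. DESeq2 without control replicate 4 gave 0.67 for Lmx1a, 0.017 for Hdc and 2.33 for Pmch. With 1 library left out the ranges were -0.19 to 0.52 (Kiss1), -0.49 to 0.071 (Oxt), -0.0042 to 0.22 (Gal), -0.049 to 0.14 (Ppara), -0.074 to 0.11 (Igsf10), -2.09 to 0.66 (Lmx1a), -3.14 to 0.023 (Hdc) and -3.997 to 2.37 (Pmch).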
